A study of Mus musculus with 6 samples.

Results

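The genes described here are 38 genes linked to NRF2, the transcription factor encoded by Nfe2l2, and include enzymes of the pentose phosphate pathway. Glutathione S-transferase genes were not included. Members were matched to array probes through the transcript accession of each probe, and all 38 were found, among 20659 named genes on the array. They were read by 51 probes, and 49 of these, in 37 genes, could be tested: on all arrays of the si-NC group, the si-lncMGPF group or both, they were well above background. Their levels were compared between 3 samples of C2C12 cells given a control siRNA (si-NC) and 3 in which an siRNA targeted lncMGPF, a long noncoding RNA (si-lncMGPF). C2C12 is an established line of mouse myoblasts, which leave the cell cycle and fuse into myotubes when serum is withdrawn. All samples were total RNA taken after 2 days of induced differentiation. The 2 groups share that line and time, and the labels name no further treatment, siRNA sequence or dose.

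NRF2 is held at a low level by KEAP1, which presents it to a ubiquitin ligase for destruction. Oxidants and electrophiles react with cysteines of KEAP1, NRF2 then accumulates, pairs with small MAF proteins and binds antioxidant response elements near its target genes. The targets reduce quinones and carbonyls, make and recycle glutathione and thioredoxin, supply NADPH through the pentose phosphate pathway and malic enzyme, and store or recycle iron. NRF2 activity is set largely by protein stability, which RNA levels do not show. In differentiating muscle cells these enzymes are known for handling oxidants that come with rising respiration.

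By their scan identifiers, 4 arrays shared slide 1, namely all 3 of si-NC with replicate 1 of si-lncMGPF. Slide 2 carried the other two si-lncMGPF arrays, replicates 2 and 3. Slide 2 holds no si-NC array, so on that slide siRNA and slide cannot be told apart. The within-slide comparison therefore sets 1 si-lncMGPF array against 3 si-NC arrays. Between 64.7% and 65.8% of spots were well above background on slide 1, against 57.5% and 57.9% on slide 2. The level of lncMGPF itself was not analysed here. All 10 skeletal muscle markers examined, Myod1, Myog and Des among them, were well above background on all 6 arrays. So were the 5 markers of undifferentiated or cycling myoblasts (summed scaled signal 17.1 to 17.5 in si-NC and 14.8 to 18.7 in si-lncMGPF) and the 5 fibroblast markers (200 to 257 and 203 to 282). None of the genes of these 3 lists passed the threshold, and each list held both directions. Log2 differences were positive for 7 and negative for 3 muscle markers. They were positive for 3 and negative for 2 myoblast markers, and positive for 2 and negative for 3 fibroblast markers. Myh3 of the muscle list lay lower without overlap (log2 difference -0.15), and Pdgfra of the fibroblast list higher (0.11). With an unadjusted p below 0.05 and without overlap, Actc1 lay higher in si-lncMGPF (log2 difference 0.27, adjusted p = 0.268, 0.14 within slide 1 and 0.34 on slide 2), and Myf5 and Lum lay lower, Myf5 by a log2 difference of -1.20 (adjusted p = 0.258, -0.21 within slide 1 and -1.69 on slide 2) and Lum by -0.54 (adjusted p = 0.192, -0.76 and -0.43). The adipocyte, hepatocyte and epithelial markers were dim, with summed scaled signals of at most 0.0994 on any array, although Fabp4 of the adipocyte list was well above background on all 6 arrays. Pecam1 and Kdr of the endothelial list and Cd14, Adgre1 and Csf1r of the leukocyte list were above background on all arrays as well, and Cdh5 and Tek on none. The leukocyte list had a summed list signal of 0.843 to 0.901 in si-NC and 0.862 to 1 in si-lncMGPF. Their part in the results was not tested. Whether the replicates came from different cultures is not stated in the labels. The p-values therefore reflect the spread among these 6 samples alone, and that spread may be technical. In bulk RNA, fewer cells of a type and less RNA per cell cannot be told apart.

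The core of the antioxidant response element is TGACNNNGC, where N is any base. It was searched on both strands of the 250 bases before each start in RefSeq promoters of build GRCm38.p6. It can overlap the AP-1 motif, from which these letters do not separate it. Of 32 members with an entry, 8 held the core (25%), against 11.5% of all 27025 genes with an entry, whether or not tested on the array. A gene with several entries counted if any of them held the core. Genes of like signal or like number of entries were not compared. The windows below show each of those matches with up to 10 bases on either side, in the direction of the strand that carries the core, which is in capitals. They are given so that the members that did and did not differ on the arrays can be set beside the letters in front of them.
Nfe2l2, chr2:75704885-75704913: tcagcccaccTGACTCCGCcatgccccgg
Gclm, chr3:122245413-122245441: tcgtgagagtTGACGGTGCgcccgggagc
Prdx1, chr4:116685456-116685484: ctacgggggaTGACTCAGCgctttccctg
Ugdh, chr5:65435956-65435984: gcggagcccgTGACTTAGCtggagctgat
Ugdh, chr5:65435918-65435946: ccgaactgtaTGACCACGCcccttgagga
Txnrd1, chr10:82859104-82859132: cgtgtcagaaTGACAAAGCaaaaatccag
Abcc4, chr14:118706226-118706254: cggcccgcccTGACCCCGCctctcggggc
Abcc4, chr14:118676936-118676964: aataatctcgTGACTCTGCcgtggtggat
Sod1, chr16:90220696-90220724: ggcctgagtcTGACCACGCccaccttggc
G6pdx, chrX:74428919-74428947: gcgtgtgcttTGACTGAGCtgacccgcct

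Of the 8, Prdx1 alone is among the 9 members whose arrays did not overlap between groups, and the others are described below. Over all tested genes 9.7% lay higher and 12.7% lower without overlap. Aldh3a1, also among those 9, had no promoter entry and so could not be among the 8. Nqo1, the member that differed most, held no match in this window, which says only that these letters are not in it. The 250 bases before the start of Nqo1 and Prdx1 are shown for that contrast, each on its gene's strand, with the core in capitals. In Prdx1 the core lies 124 bases before the start on the other strand, so its letters appear here as the reverse complement.
Nqo1, chr8:107403206-107403455, minus strand: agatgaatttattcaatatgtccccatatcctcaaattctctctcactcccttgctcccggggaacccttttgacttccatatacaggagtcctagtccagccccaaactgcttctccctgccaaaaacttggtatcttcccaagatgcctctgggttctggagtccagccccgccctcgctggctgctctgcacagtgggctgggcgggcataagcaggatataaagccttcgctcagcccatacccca
Prdx1, chr4:116685349-116685598, plus strand: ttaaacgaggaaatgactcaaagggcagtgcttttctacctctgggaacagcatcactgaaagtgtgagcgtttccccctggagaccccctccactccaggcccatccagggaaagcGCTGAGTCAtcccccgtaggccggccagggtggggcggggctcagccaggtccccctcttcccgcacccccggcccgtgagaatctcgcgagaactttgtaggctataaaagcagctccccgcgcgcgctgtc

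Nqo1 rose in si-lncMGPF, and it was the 1 member of 37 tested that passed the threshold. Nqo1 encodes NAD(P)H quinone dehydrogenase, which reduces quinones by 2 electrons and is a classic NRF2 target. Scaled signals, here and below in the order of replicates 1, 2 and 3, are multiples of the 75th percentile of the array. For Nqo1 they were 0.220, 0.196 and 0.198 in si-NC, and the si-lncMGPF arrays had 0.388, 0.402 and 0.399. The 3 si-lncMGPF arrays lay close together and far above every si-NC array, on both slides. The means were 0.204 ± 0.0134 in si-NC and 0.396 ± 0.00741 in si-lncMGPF (SD, n = 3). The rise was 1.94-fold (log2 difference 0.96, SE 0.09, 95% interval 0.74 to 1.17, adjusted p = 0.0363 by limma). Over all tested probes limma called 0.105% at an adjusted p below 0.05, and 0.147% of 14271 tested genes with 1 probe per gene.

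The log2 difference of Nqo1 was 0.93 within slide 1 and 0.97 when slide 2 was set against those 3 si-NC arrays. Pairs of values given by slide below are in that order. With slide as a block the adjusted p was 0.112, since the group effect then rests on 1 si-lncMGPF array. The call was also lost with quantile normalization (adjusted p = 0.0502, log2 difference 0.97), without a filter on dim probes (0.0935) and when any single array other than si-lncMGPF replicate 1 was left out (adjusted p 0.0971 to 0.383). Across all 20 alternatives the log2 difference stayed between 0.78 and 1.01.

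A positive log2 difference over all arrays was found for 35 of 37 tested members, against 54% of tested genes, with a median of 0.18 against 0.02 over all tested genes. Within slide 1, 19 of 37 were positive, against 39.3% of tested genes, with a median of 0.0031 against -0.07. On slide 2 against the si-NC arrays, 34 of 37 were positive, against 59.8% of tested genes, with a median of 0.28 against 0.06. At an unadjusted p below 0.05, 5 members were higher and 0 lower (limma), where 6.04% of tested genes were higher and 8.14% lower.

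**Figure D1:**
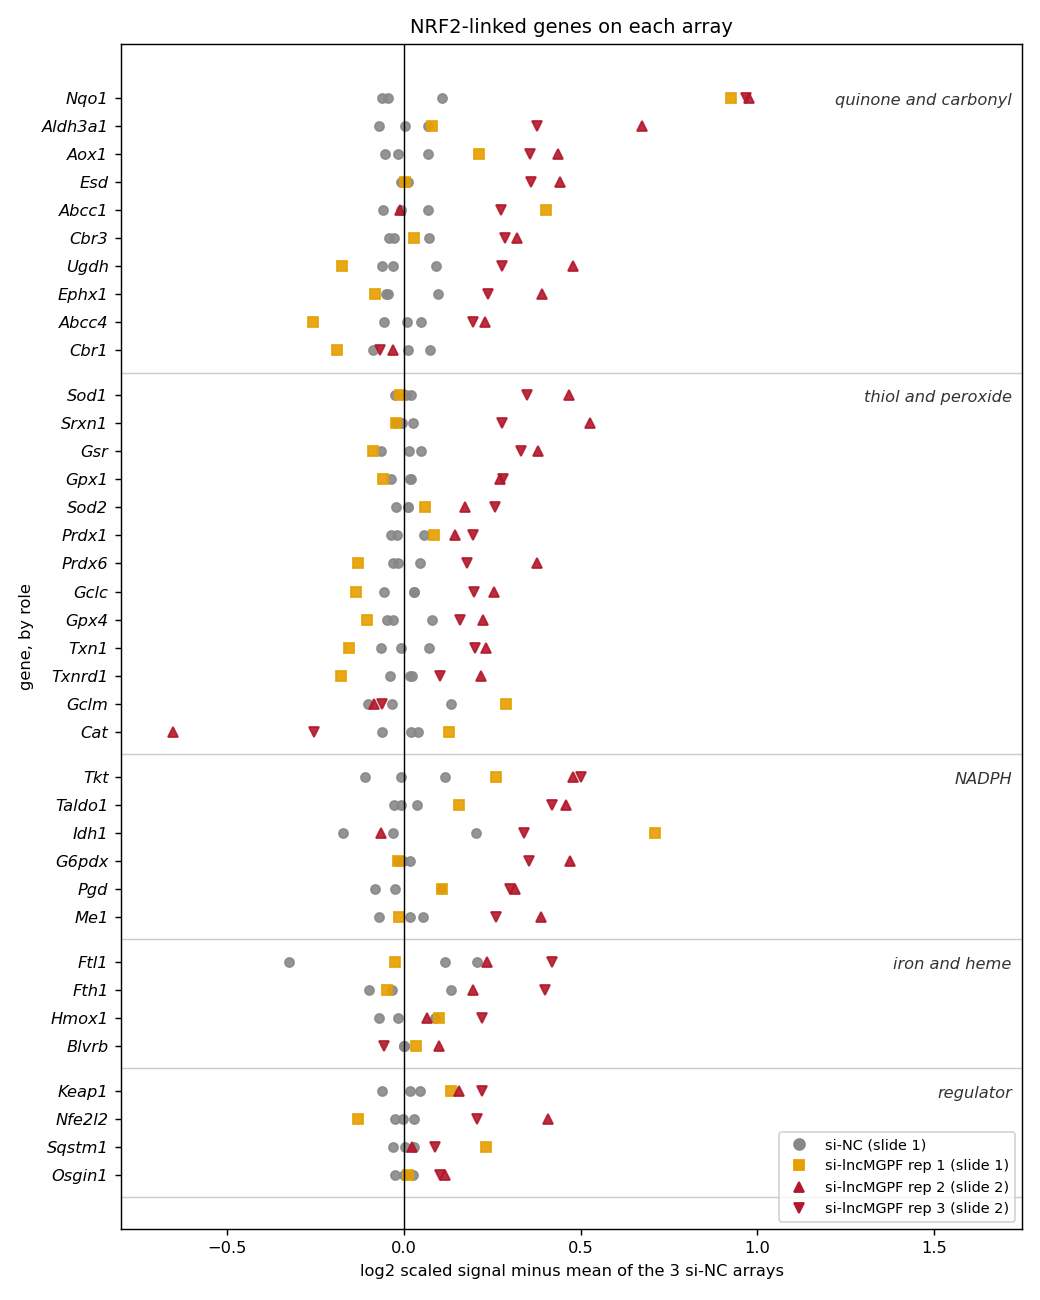
Log2 scaled signal of the 37 tested members on each array, as the difference from the mean of the 3 si-NC arrays, with genes ordered by role. Grey circles are si-NC arrays, the orange square is si-lncMGPF replicate 1 on slide 1, and red triangles are si-lncMGPF replicates 2 and 3 on slide 2. For Nqo1 all 3 si-lncMGPF points lie near 1, while for most other members the red triangles are to the right and the orange square is near or below 0.

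For 9 of the 37 tested members the si-NC and si-lncMGPF arrays did not overlap, all 9 higher in si-lncMGPF, where 9.7% of tested genes lay higher and 12.7% lower without overlap. The si-lncMGPF array of slide 1 was above the si-NC range for 16 members, within it for 7 and below it for 14. Over all tested genes it was above for 29.1% and below for 49.5%. Both slide 2 arrays were above the si-NC range for 29 members and below it for 1, against 34.1% and 20.3% of tested genes. For 13 members the slide 1 array was below the si-NC range while both slide 2 arrays were above it. These 13 were Abcc4, Ephx1, Ugdh, Gclc, Gpx1, Gpx4, Gsr, Prdx6, Srxn1, Txn1, Txnrd1, G6pdx and Nfe2l2. Over all tested genes 17.1% had that position. Of the 13, 11 were in the brightest of 5 equal bins of tested genes by mean signal, which holds 21 members and in which 37.7% of genes had it.

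**Figure D2:**
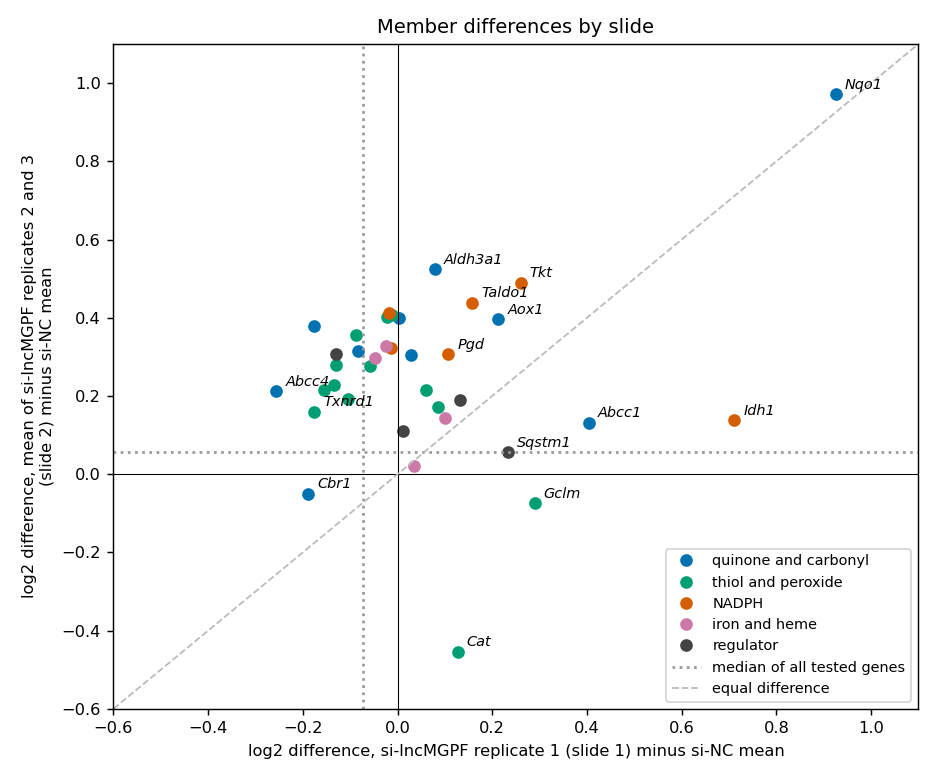
Log2 difference from the si-NC mean of each tested member on slide 1 (x axis, si-lncMGPF replicate 1) and on slide 2 (y axis, mean of si-lncMGPF replicates 2 and 3), coloured by role. Both axes use the same si-NC arrays, so the points share those controls. Nqo1 lies near the line of equal difference at 0.93 and 0.97, most members lie above that line, and Idh1, Abcc1, Gclm, Sqstm1, Cat and, by a small margin, Blvrb lie below it.

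Members are mostly bright, and bright probes as a class differed by slide. When tested genes were split into those 5 bins, 21 members fell in the brightest, 10 in the next, 3 in each of the bins below and 0 in the dimmest. Over all tested genes of the brightest bin the median log2 difference was -0.14 within slide 1 and 0.14 on slide 2. For the 21 members of that bin it was -0.02 and 0.31. Both slide 2 arrays were above the si-NC range for 21 of those 21 members, against 56% of tested genes in that bin. No overlap in the higher direction was seen for 5 of them, against 8.27% in that bin. The net signal of negative control spots, as the scanner software averaged it, was 20.1 to 21.8 intensity units on slide 1 and 37.3 and 42.5 on slide 2. The part that slide and signal have in the members' differences was not tested beyond these values and the alternative settings given at the end.

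**Figure D3:**
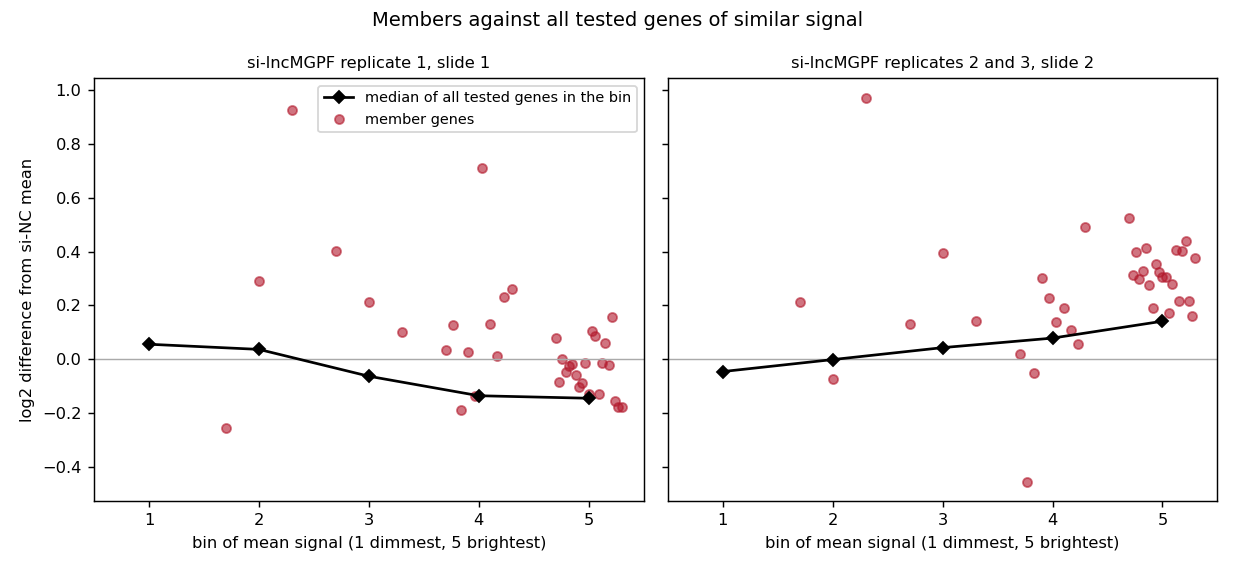
Log2 difference from the si-NC mean by bin of mean signal, for si-lncMGPF replicate 1 on slide 1 (left) and replicates 2 and 3 on slide 2 (right). Red points are members, spread sideways within a bin for legibility, and black diamonds are medians of all tested genes in the bin. In the brightest bin the black line falls to -0.14 on slide 1 and climbs to 0.14 on slide 2, and the members lie mostly above it on both.

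The quinone and carbonyl group holds the enzymes that act on reactive small molecules and the pumps that export their conjugates. Of its 10 members 9 had a positive log2 difference, with a median of 0.22 over all arrays, 0.02 within slide 1 and 0.35 on slide 2. Besides Nqo1, Aox1 and Aldh3a1 did not overlap between groups. Aox1, an aldehyde oxidase, had scaled signals of 0.526, 0.572 and 0.539 in si-NC and 0.632, 0.737 and 0.698 in si-lncMGPF. All 3 si-lncMGPF arrays were above the highest si-NC array, the slide 1 array by the least. Its log2 difference was 0.34 (SE 0.10, adjusted p = 0.229), with 0.21 within slide 1.

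Aldh3a1 encodes an aldehyde dehydrogenase that clears fatty and aromatic aldehydes. It had 8.49, 9.34 and 8.94 in si-NC and 9.41, 14.2 and 11.6 in si-lncMGPF. The slide 1 array of si-lncMGPF barely exceeded the si-NC range, and the slide 2 arrays carried the difference of 0.38 on the log2 scale (SE 0.16, adjusted p = 0.314), which was 0.08 within slide 1. A second probe gave 0.44, with 0.07 within slide 1. Esd, which hydrolyses S-formylglutathione, had a log2 difference of 0.0031 within slide 1 and 0.40 on slide 2 on its brightest probe. A far dimmer Esd probe gave 0.44 and 0.03. Its scaled signals were 0.035 to 0.059, and it was well above background on 2 of 3 si-lncMGPF arrays. The carbonyl reductase Cbr3 had 0.03 and 0.30.

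Abcc1, a pump of glutathione conjugates, differed in the other order, with 0.40 within slide 1 and 0.13 on slide 2. Its scaled signals were 1.001, 0.917 and 0.949 in si-NC and 1.26, 0.947 and 1.16 in si-lncMGPF, so si-lncMGPF replicate 2 lay inside the si-NC range. Cbr1, a second carbonyl reductase, was the member of this group with a negative log2 difference (-0.10, SE 0.09, adjusted p = 0.62), and it was negative on both slides (-0.19 and -0.05). Ugdh, which makes the glucuronic acid donor, had -0.18 and 0.38, the pump Abcc4 -0.26 and 0.21, and the microsomal epoxide hydrolase Ephx1 -0.08 and 0.31. Their slide 1 and slide 2 differences had opposite signs. A dimmer probe of Ephx1 gave 0.02 and -0.09.

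**Figure D4:**
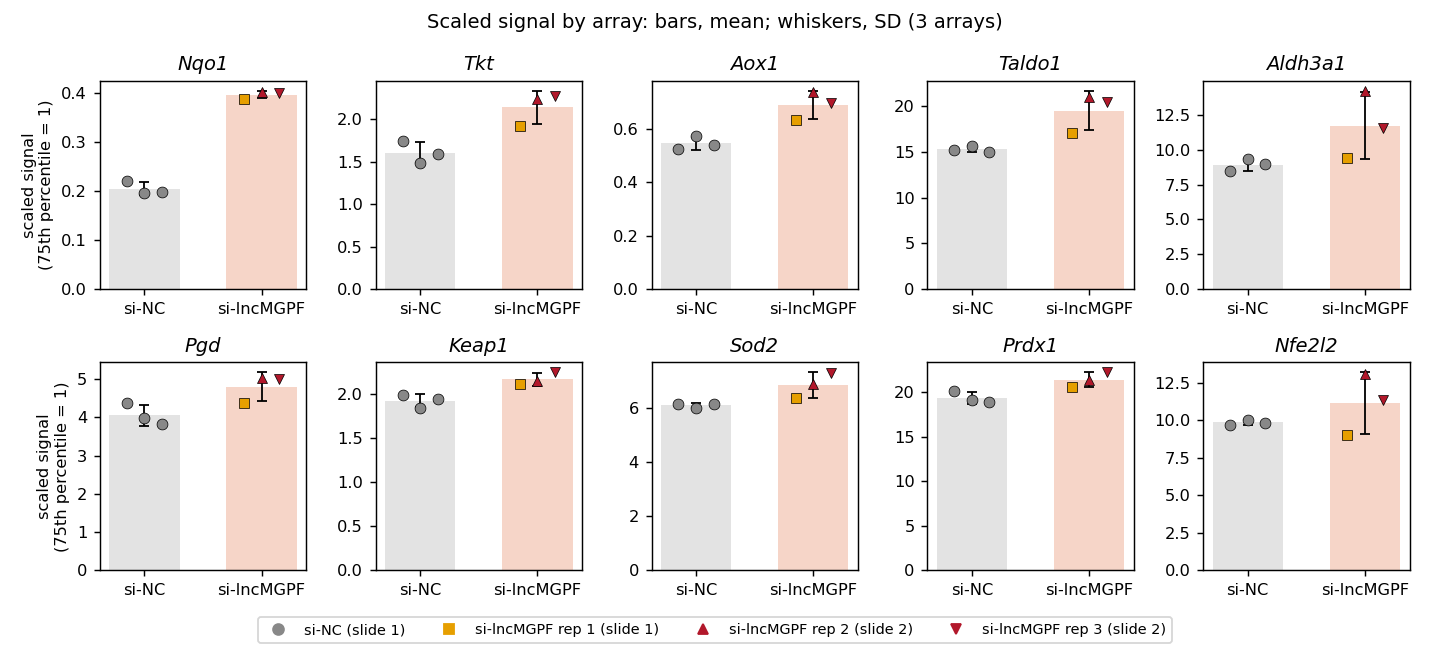
Scaled signal (75th percentile of the array = 1) by array for the 9 members whose groups did not overlap, in order of p, and for Nfe2l2. Bars are means and whiskers SD of 3 arrays, and the symbols mark slide as in the legend. Nqo1 has si-lncMGPF arrays from 0.388 to 0.402 against at most 0.220 in si-NC, whereas in Aldh3a1 and Pgd the slide 1 array of si-lncMGPF sits just above the si-NC arrays.

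The NADPH group holds enzymes that reduce NADP, namely G6pdx and Pgd of the oxidative pentose phosphate branch, malic enzyme Me1 and isocitrate dehydrogenase Idh1, together with Tkt and Taldo1 of the non-oxidative branch. All 6 had a positive log2 difference, from 0.21 to 0.41, with a median of 0.30 over all arrays, 0.13 within slide 1 and 0.37 on slide 2. None of the 6 passed the threshold in limma. On the probe that stood for the gene, Tkt and Taldo1 had an unadjusted p below 0.05.

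Tkt, the transketolase, had scaled signals of 1.74, 1.49 and 1.60 in si-NC and 1.92, 2.23 and 2.27 in si-lncMGPF. Every si-lncMGPF array was above every si-NC array. The log2 difference was 0.41 (SE 0.11, adjusted p = 0.221), and by slide it was 0.26 and 0.49. Taldo1, the transaldolase, had 15.2, 15.7 and 15 in si-NC and 17.1, 21.1 and 20.5 in si-lncMGPF. Its si-lncMGPF arrays also lay above all si-NC arrays, and the log2 difference was 0.34 (SE 0.11, adjusted p = 0.238), and by slide it was 0.16 and 0.44.

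Pgd, which oxidises phosphogluconate, had 4.36, 3.98 and 3.83 in si-NC and 4.36, 5.03 and 4.99 in si-lncMGPF. The slide 1 array of si-lncMGPF equalled the highest si-NC array to 3 digits, so the lack of overlap rests on a margin under the spread of the si-NC arrays. Its log2 difference was 0.24 (SE 0.10, adjusted p = 0.321). G6pdx, the first and rate-limiting enzyme of the oxidative branch, had -0.02 within slide 1 and 0.41 on slide 2.

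Idh1, the cytosolic isocitrate dehydrogenase, was chosen for mention after its values were seen, because its largest value was on slide 1. Its scaled signals were 1.55, 1.20 and 1.32 in si-NC and 2.21, 1.29 and 1.71 in si-lncMGPF. Replicate 2 lay inside the si-NC range and the other two lay above it. The log2 difference was 0.33 (SE 0.21, adjusted p = 0.456), and by slide it was 0.71 and 0.14.

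Me1 was read by 3 probes, whose values differed by slide. The brightest had scaled signals of 5.69, 5.54 and 5.21 in si-NC and 5.42, 7.16 and 6.56 in si-lncMGPF, with log2 differences of -0.01 within slide 1 and 0.32 on slide 2. The dimmest had 1.25, 1.06 and 1.14 in si-NC and 1.78, 1.39 and 1.76 in si-lncMGPF, without overlap, and log2 differences of 0.63 and 0.44. The third had 0.19 and 0.33, also without overlap. None of these probes passed the threshold (adjusted p = 0.427, 0.215 and 0.255 by limma). The dimmest and the third had unadjusted p of 0.0068 and 0.0208 (limma), unlike the brightest, which stood for the gene.

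The thiol and peroxide group covers glutathione synthesis and recycling, the thioredoxin system and the enzymes that remove superoxide and peroxide. Of 13 tested members 12 had a positive log2 difference, with a median of 0.14 over all arrays, -0.06 within slide 1 and 0.22 on slide 2. No member of this group passed the threshold, and 0 had an unadjusted p below 0.05 on the probe that stood for the gene (limma). Within slide 1, 4 of the 13 were positive.

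Prdx1 and Sod2 were the members of this group without overlap. Prdx1, a peroxiredoxin that reduces hydrogen peroxide, had 20.1, 19.1 and 18.9 in si-NC and 20.5, 21.4 and 22.2 in si-lncMGPF. The steps between groups were small against the level, with a log2 difference of 0.14 (SE 0.08, adjusted p = 0.43) and 0.09 within slide 1. A dimmer probe of Prdx1 gave 0.38 (SE 0.10, adjusted p = 0.223), which was 0.22 and 0.45 by slide, also without overlap. Sod2, the mitochondrial superoxide dismutase, had 6.15, 5.99 and 6.14 in si-NC and 6.35, 6.87 and 7.29 in si-lncMGPF. Its log2 difference was 0.16 (SE 0.09, adjusted p = 0.401), and 0.06 within slide 1.

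The 2 subunits of glutamate cysteine ligase, the first enzyme of glutathione synthesis, both had intervals that span 0. Gclc, the catalytic subunit, had a log2 difference of 0.11 (95% interval -0.19 to 0.40), or -0.13 and 0.23 by slide. Gclm, the modifier subunit, had 0.05 (95% interval -0.27 to 0.37), or 0.29 and -0.07 by slide, with scaled signals of 0.381, 0.323 and 0.339 in si-NC and 0.424, 0.327 and 0.332 in si-lncMGPF. For Gclm the slide 1 array was the highest of the 6 and the slide 2 arrays lay inside the si-NC range. Slc7a11, the cystine importer, was not well above background on any array and gets no difference here.

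Txnrd1, the cytosolic thioredoxin reductase, which held the response element core in its window, had 15.2, 15.9 and 15.8 in si-NC and 13.8, 18.2 and 16.7 in si-lncMGPF. Its slide 1 array was below all si-NC arrays and its slide 2 arrays were above them. The log2 difference was 0.05 with a 95% interval from -0.24 to 0.33. Txn1, thioredoxin itself, had 0.09 (-0.16 within slide 1, 0.22 on slide 2), and Srxn1, the sulfiredoxin that repairs overoxidised peroxiredoxins, had 0.26 (-0.02 and 0.40). The glutathione reductase Gsr had 0.21 (-0.09 and 0.36) on its brightest probe and 0.19 (0.16 and 0.21) on the other.

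Sod1, the cytosolic superoxide dismutase, had 0.27 (-0.01 and 0.41), and the glutathione peroxidases Gpx1 and Gpx4 had 0.16 (-0.06 and 0.28) and 0.09 (-0.10 and 0.19). Prdx6, a peroxiredoxin that also acts on phospholipids, gave 0.14 (-0.13 and 0.28) on its brightest probe. Its next brightest probe gave 0.28 (0.30 and 0.27) without overlap of the groups (adjusted p = 0.234), the third gave 0.22 (0.39 and 0.13), and the remaining probe was not above background on any array. Cat, the catalase of peroxisomes, was the member of this group with a negative difference (-0.26, SE 0.19, adjusted p = 0.517). Its scaled signals were 1.83, 1.73 and 1.86 in si-NC and 1.97, 1.15 and 1.51 in si-lncMGPF. The slide 1 array was the highest of the 6 and the slide 2 arrays were the lowest, while a dimmer probe of Cat gave 0.36 (0.93 and 0.08).

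**Figure D5:**
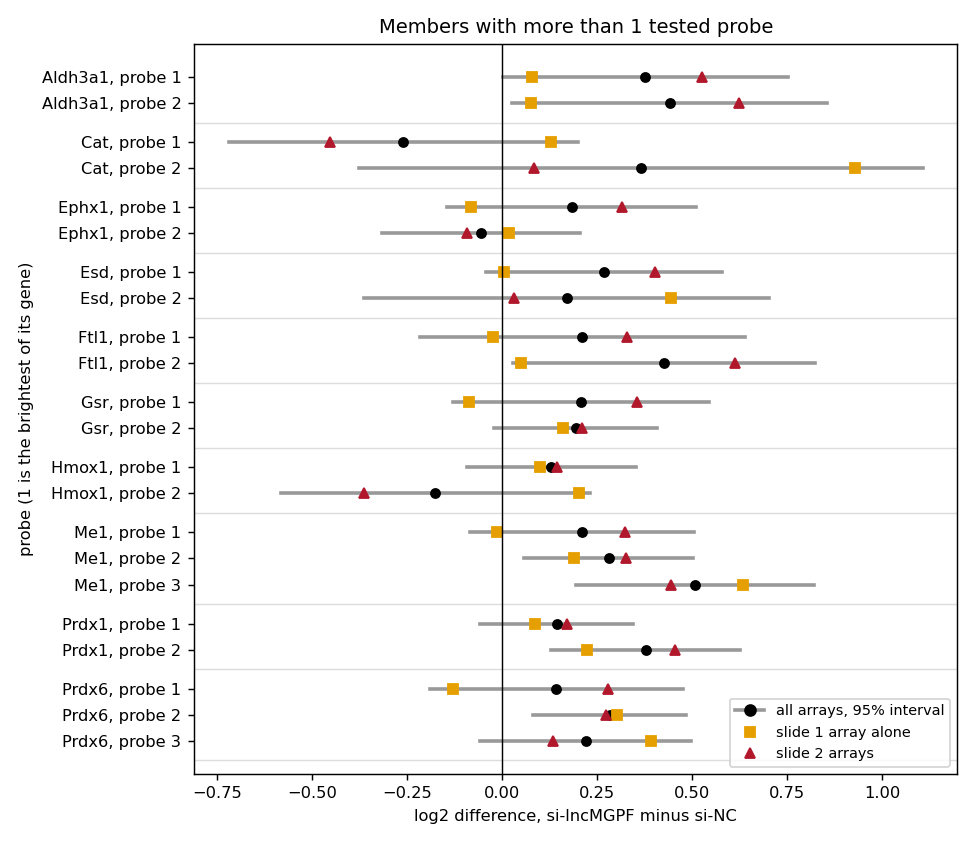
Log2 difference between si-lncMGPF and si-NC for each tested probe of the 10 members with more than 1, ordered within a gene from the brightest probe. Black points and grey lines are the fit over all arrays with its 95% interval, orange squares the slide 1 array alone and red triangles the slide 2 arrays. The 3 probes of Me1 and of Prdx6 are all positive over all arrays, while the probes of Cat, Ephx1 and Hmox1 fall on both sides of 0.

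For 10 members more than 1 probe was tested, and in 3 of them (Cat, Ephx1 and Hmox1) the probes differed in sign. Several members belong to families with many processed copies in the genome, Fth1, Ftl1, Prdx1, Txn1, Gpx1 and Gpx4 among them, so their signals may include near-identical transcripts. Probe sequences were not used here.

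The iron and heme group had 4 members, all with a small positive log2 difference (median 0.16, 0.0047 within slide 1 and 0.22 on slide 2). Without si-NC replicate 1 the median was 0.07, without si-lncMGPF replicate 3 it was 0.08, and with quantile normalization 0.05. Fth1 and Ftl1, the heavy and light chains of the iron store ferritin, had 0.18 (-0.05 and 0.30) and 0.21 (-0.02 and 0.33). A dimmer Ftl1 probe gave 0.42 (0.05 and 0.61) without overlap (adjusted p = 0.292). Hmox1, which opens heme and is a classic responder to oxidants, had 1.01, 1.13 and 1.05 in si-NC and 1.14, 1.11 and 1.24 in si-lncMGPF. These values overlapped, with a log2 difference of 0.13 (95% interval -0.09 to 0.35). A second Hmox1 probe gave -0.18 (0.20 and -0.37). Blvrb, a biliverdin and flavin reductase, had 0.03 (95% interval -0.18 to 0.23).

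None of the 4 regulators passed the threshold, and all 4 had a positive log2 difference of at most 0.17. Nfe2l2, which encodes NRF2, had scaled signals of 9.67, 10.03 and 9.84 in si-NC and 8.99, 13.1 and 11.4 in si-lncMGPF. The slide 1 array was below and both slide 2 arrays above the si-NC range, giving a log2 difference of 0.16 (SE 0.14, 95% interval -0.18 to 0.51, adjusted p = 0.592), or -0.13 and 0.31 by slide. Keap1 had 1.99, 1.84 and 1.95 in si-NC and 2.11, 2.14 and 2.24 in si-lncMGPF. Its groups did not overlap, and the log2 difference was 0.17 (SE 0.08, 95% interval -0.03 to 0.37, adjusted p = 0.367), or 0.13 and 0.19 by slide. Sqstm1, the autophagy receptor that binds KEAP1, had 0.12 (0.23 and 0.06). Osgin1, an oxidant-induced growth inhibitor, had 0.08 (0.01 and 0.11).

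Other genes were read from lists of partners and antagonists of NRF2, further redox and NADPH genes, and further iron and heme genes. Another list held the aryl hydrocarbon receptor (which also acts on Nqo1 and Aldh3a1), its partner Arnt and its targets. The last list held Atf4 and stress genes linked to ATF4 (which also acts on Slc7a11). None of the 15, 33, 18, 6 and 12 tested genes of these lists passed the threshold over all probes. At an unadjusted p below 0.05 (limma), the counts higher and lower were 0 and 2 among partners, 2 and 4 among redox and NADPH genes, 2 and 0 among iron and heme genes, 1 and 0 among aryl hydrocarbon receptor genes, and 2 and 0 among ATF4 genes. Over all tested genes the shares were 6.04% higher and 8.14% lower. The median log2 differences, in the same order, were 0.0037, 0.08, 0.06, 0.21 and 0.12, against 0.02 over all tested genes. Within slide 1 these medians were -0.08, -0.07, -0.06, -0.05 and 0.0067, against -0.07 over all tested genes. On slide 2 they were 0.01, 0.13, 0.06, 0.29 and 0.21, against 0.06.

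Among partners, Bach1, the repressor that competes with NRF2 on response elements, had 2.84, 2.81 and 2.73 in si-NC and 2.52, 2.54 and 2.70 in si-lncMGPF. All 3 si-lncMGPF arrays were below the si-NC arrays, by a log2 difference of -0.11 (SE 0.08, adjusted p = 0.509). Mafg, a small MAF partner, had 0.0037. Trim16 had -0.36 (adjusted p = 0.238), with -0.35 and -0.37 on the slides. Crebbp, a coactivator, had -0.44 (adjusted p = 0.325), with -0.05 and -0.64.

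Among further redox genes the metallothioneins, which bind zinc and copper and scavenge oxidants, lay lower in si-lncMGPF on both slides. Mt2 had 10.5, 18.2 and 14.3 in si-NC and 5.40, 10.4 and 8.43 in si-lncMGPF. The groups came within a narrow margin of each other and the si-NC arrays were widely spread, so the log2 difference of -0.84 had an SE of 0.29 (adjusted p = 0.264), or -1.37 and -0.57 by slide. Mt1 had -0.51 (adjusted p = 0.29), with -0.92 and -0.31. Gpx3, the secreted glutathione peroxidase, had -0.38 (SE 0.08, adjusted p = 0.187), with -0.40 and -0.37, and Prdx5 had 0.21 (adjusted p = 0.293), with 0.15 and 0.24.

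Tfrc, the transferrin receptor, had 2.81, 2.15 and 2.43 in si-NC and 3.39, 2.997 and 3.27 in si-lncMGPF, without overlap, and a log2 difference of 0.39 (SE 0.12, adjusted p = 0.238) with 0.47 and 0.36 on the slides. Alad, of heme synthesis, had 0.26 (0.17 and 0.31). Of the aryl hydrocarbon receptor genes, the receptor Ahr itself had 0.30 (SE 0.12, adjusted p = 0.288), with 0.16 and 0.37. Cyp1a1, its classic target, had 0.418, 0.237 and 0.315 in si-NC and 0.328, 1.08 and 0.594 in si-lncMGPF. Cyp1a1 was thus inside the si-NC range on slide 1 (log2 difference 0.06) and above it on slide 2 (1.35). Its log2 difference over all arrays was 0.92, with a wide interval that spans 0 (95% interval -0.12 to 1.95, adjusted p = 0.352 by limma). Sesn2, an ATF4 and p53 target, had 0.70 (SE 0.21, adjusted p = 0.233), with 0.94 and 0.58, and Ddit4 had 0.38 (adjusted p = 0.276), with 0.12 and 0.52.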

How the data were processed

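The processed signals analysed are deposited intensity values of 1-colour arrays, linear, with background and spatial trends removed by Feature Extraction 11.0.1.1, per the file headers. Intensity values in the authors' series table were identical to them (44397 of 44397 spots equal on each array, with no tolerance). Samples were grouped by their labels. Control and outlier spots were left out. None of the spots was saturated. The scale was log2 of the processed signal minus log2 of the array's 75th percentile (492.1 to 930.7 intensity units), with a probe's spots averaged. Depth is not defined for arrays, and their number limits the precision. Scaling hides a shift shared by most transcripts. Probes well above background on every array of a group were tested (24665 of 39429), and the brightest tested probe stood for a gene.

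The si-lncMGPF and si-NC groups were set against each other in limma 3.58.1 (R 4.3.3), without covariate, with Benjamini-Hochberg adjustment over all tested probes and a threshold of 0.05. On simulated data with 200 of 24665 probes changed, 26.3% of 1.5-fold, 63.1% of 2-fold and 88.9% of 4-fold changes were recovered, with 4.15% of calls false. The simulated noise was independent for each probe and array and held no slide effect. These rates therefore do not cover arrays that differ by slide. Accessions without version were matched to RefSeq genes of another build than the array's, used for names. They named 27234 probes. Promoter sequences are from RefSeq, and 6 members had no entry. Alternatives were other scalings, normexp background correction (offset 50, on median spot signals), filters, priors, weights per array, blocks for slide and for replicate number, the mean of a gene's probes, the series table and leaving out each array. Removal of a signal trend was added after seeing the data. Values in full are given for called members, for those without overlap, and for Nfe2l2 and Keap1. Abcc1, Gclm, Cat, Idh1, Hmox1, Txnrd1, Me1 and Cyp1a1 were added after their values were seen. At most 4 genes per further list are named, in order of p, plus Bach1 and Mafg. A further gene that this rule would name is not reported here. The members and lists were chosen with earlier results of these data known. Figures were drawn with matplotlib 3.10.9.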

Additional observations from a re-analysis of the deposited data

How the results depend on the processing

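Nqo1 kept a positive log2 difference under all 20 alternatives. Over all probes 26 were called, against 6 with quantile normalization, 0 without a filter (5277 at an unadjusted p below 0.05 by limma), 10 with slide as a block, 1 on slide 1 alone and 10044 with array weights, and 0 to 4121 when 1 array was left out (where 0 were called, 1877 to 2694 had an unadjusted p below 0.05). Of the members 1 was called, against 0 in the first 4 of these settings, 25 with array weights and 0 to 13 with 1 array left out. The 13 and 4121 come without si-lncMGPF replicate 1, where slide and group coincide. The cause of the array-weight count was not tested. Deviations from the group means had correlations of 0.29, 0.45 and -0.07 between arrays of the same replicate number. Arrays of different number were not compared, so whether the numbers pair the arrays was not settled. With the replicate block 0 probes (4434 at an unadjusted p below 0.05 by limma) and 0 members were called.

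With slide as a block, and equally on slide 1 alone, the medians were 0.016 for quinone and carbonyl, -0.0582 for thiol and peroxide, 0.1319 for NADPH, 0.0047 for iron and heme and 0.0724 for regulator genes. With slide as a random block they were 0.0816 for quinone and carbonyl, 0.0379 for iron and heme, 0.0071 for thiol and peroxide, 0.179 for NADPH and 0.0875 for regulator genes, and normexp gave 0.0251 for iron and heme genes. For iron and heme genes quantile normalization gave 0.0524 and removal of the signal trend 0.0889. For the other groups, removal of the signal trend gave 0.2084 (quinone and carbonyl), 0.097 (thiol and peroxide), 0.2743 (NADPH) and 0.1171 (regulator). With 1 array left out the medians ranged from 0.1697 to 0.3462 for quinone and carbonyl, 0.1065 to 0.2164 for thiol and peroxide, 0.2457 to 0.3678 for NADPH, 0.0709 to 0.2205 for iron and heme and 0.1092 to 0.1496 for regulator genes. With slide as a block or slide 1 alone the sign changed for Abcc4 (-0.2558), Cat (0.1271), Ephx1 (-0.0828), Fth1 (-0.0485), Ftl1 (-0.0244), G6pdx (-0.0176), Gclc (-0.1345), Gpx1 (-0.0582), Gpx4 (-0.1045), Gsr (-0.0882), Me1 (-0.0145), Nfe2l2 (-0.1305), Prdx6 (-0.1299), Sod1 (-0.012), Srxn1 (-0.0215), Txn1 (-0.1552), Txnrd1 (-0.1767), Ugdh (-0.1758). With slide as a random block it changed for Abcc4 (-0.1643), Cat (0.0136), Ephx1 (-0.0053), Gclc (-0.0638), Gpx4 (-0.0466), Gsr (-0.0016), Nfe2l2 (-0.0449), Prdx6 (-0.0502), Txn1 (-0.0826), Txnrd1 (-0.111), Ugdh (-0.0676). It also changed with array weights for Blvrb (-0.0326), Gclm (-0.0167), with the mean of probes for Cat (0.0519), Hmox1 (-0.0235), and with normexp for Fth1 (-0.0031), Txnrd1 (-0.0194). Over the fits that left out 1 array each the sign was not constant for Abcc4 (-0.0305 to 0.2128), Blvrb (-0.0118 to 0.0672), Gclm (-0.0739 to 0.1145), Txnrd1 (-0.0376 to 0.16). None of these members was called in the comparison of all arrays. The number of arrays, 3 per group, limits the precision, and the part of slide was not tested beyond these settings.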
